A study of Mus musculus with 6 samples.

Results

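The endothelial receptors and angiogenic factors described here are 10 genes chosen by name: *Pecam1*, *Cdh5*, *Kdr*, *Flt1*, *Tek* and *Tie1*, whose products sit on the endothelial surface, and the secreted ligands *Vegfa*, *Vegfb*, *Angpt1* and *Angpt2*. They were found by NCBI gene identifier among the 19790 genes of a read-count table, and all 10 were present and passed the filter on low counts. RNA-seq was done on gonadal white adipose tissue (gWAT), a visceral depot that surrounds the epididymis in males, of 6 wild-type male C57BL/6 mice. Of these, 3 were fed a normal chow diet (NCD) and 3 a high-fat diet (HFD), each for 8 weeks. The sample labels give an age of 6 weeks at the start of feeding, and the methods give 8 weeks for HFD. No genetic change or drug was part of either group, and the only contrast of the design is HFD against NCD.

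Blood vessels of fat supply fatty acids and oxygen and have to grow with the tissue. Vascular endothelial growth factor A, made in fat largely by adipocytes, acts on the receptor encoded by *Kdr*, while the receptor encoded by *Flt1* binds the same ligand more tightly, signals weakly and can act as a decoy. Angiopoietin 1 activates the receptor encoded by *Tek* and keeps vessels stable, and angiopoietin 2, released by activated endothelium, can oppose it.

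The libraries held between 49575113 and 66360046 counts. NCD replicate 1 stood apart from the rest, with 58.6% of its counts on 11 genes of seminal vesicle secretion, against 11.2% in NCD replicate 2, 2.30% in NCD replicate 3 and at most 1.21e-05% on HFD. Levels below are CPM, counts scaled to a library of 1e6, after trimmed mean of M-values (TMM) scaling, whose factor was 0.496 for NCD replicate 1 and 1.02 to 1.27 for the other libraries. After this scaling the 10 genes still lay at 0.238 to 0.519 of the mean of the other NCD mice in NCD replicate 1, with a median of 0.357, while the median over all 15241 genes tested was 0.981. Adipocyte markers lay at 0.202 to 0.289 there, 20 other endothelial genes at 0.220 to 0.733, smooth muscle markers at 2.93 to 18.4 and epithelial markers at 13.5 to 20.02. Comparisons of the 10 genes are therefore given with and without that mouse.

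With all 6 mice, none of the 10 genes differed between the diets past the threshold, an adjusted p under 0.05 (edgeR's quasi-likelihood test, Benjamini-Hochberg). The count was 0 at an unadjusted p under 0.05, and DESeq2 also called 0 of 10 after adjustment and 2 before it. Over all genes tested, 7.47% passed this threshold in edgeR, 5.58% as higher and 1.90% as lower on HFD, and 25.6% passed it in DESeq2. With limma's voom and a weight for each library, the 3 genes *Pecam1*, *Vegfb* and *Angpt1* were called, against 36.5% of all genes. Of the 10 genes, *Pecam1*, *Tek* and *Tie1* were higher in every HFD mouse than in every NCD mouse and none was lower in every HFD mouse, against 20.5% and 18.7% of all genes tested. Without NCD replicate 1, *Pecam1* was upregulated and *Vegfb* and *Angpt1* were downregulated on HFD, 3 of 10 genes against 20.9% of all genes in that comparison of 2 mice with 3, of which 10.7% were called higher and 10.1% lower. Against NCD replicates 2 and 3 alone, *Kdr*, *Vegfa*, *Vegfb* and *Angpt1* were lower in every HFD mouse, as were 29.5% of all genes, and *Pecam1*, *Tek* and *Tie1* were higher, as were 28.0% of all genes. In bulk tissue, fewer cells of a type and less RNA per cell cannot be told apart.

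**Figure D1:**
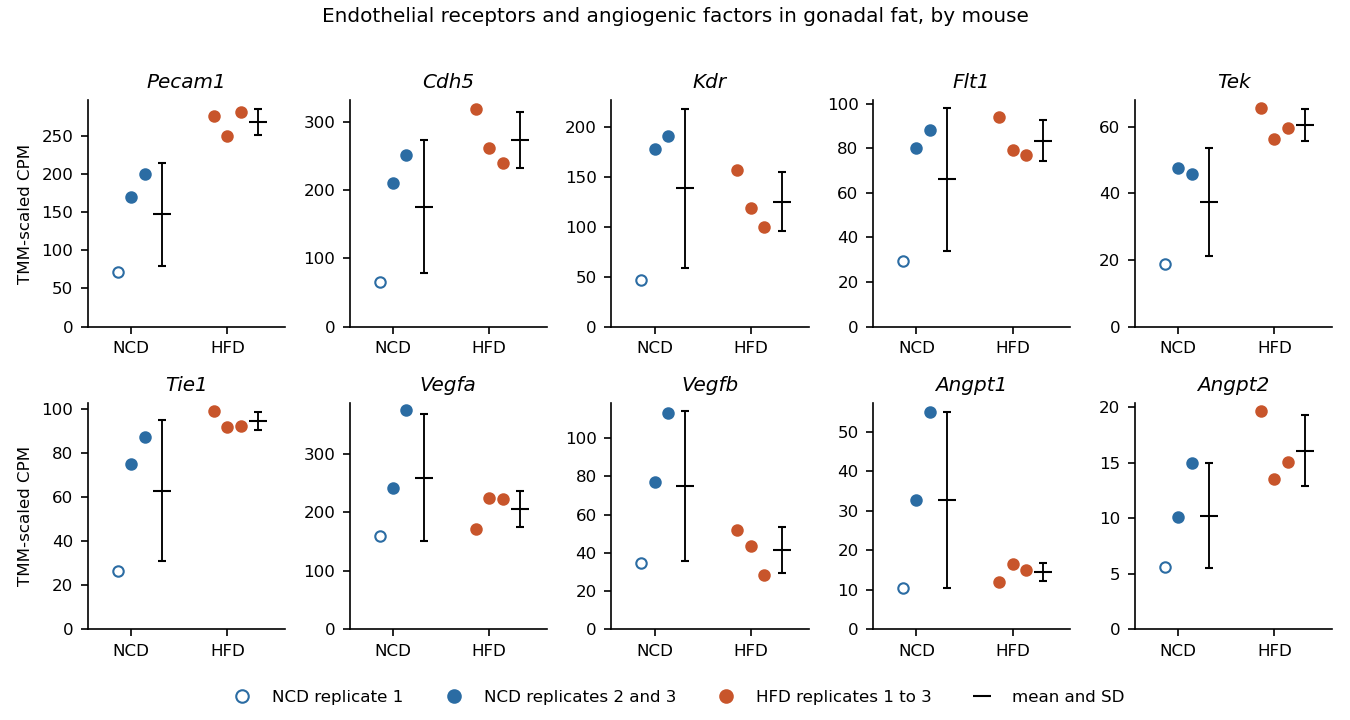
Level of each of the 10 genes in each mouse, in TMM-scaled CPM on a linear axis from 0, with bars for the mean and SD of 3 mice per diet. The open circle, NCD replicate 1, is the lowest point in every panel but that of *Vegfb*, where HFD replicate 3 is lower, and *Pecam1*, *Tek* and *Tie1* are higher in each HFD mouse than in each NCD mouse.

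*Pecam1* (NCBI gene 18613, chr11:106654217-106750628 on the minus strand of GRCm38) encodes CD31, an adhesion molecule of endothelial junctions that platelets and many leukocytes also carry. Its level was 71.3, 171 and 200 CPM in NCD replicates 1 to 3 and 277, 250 and 282 CPM in HFD replicates 1 to 3, so that the diets did not overlap. The mean was 147 ± 67.4 CPM (SD, n = 3) on NCD and 269 ± 17.1 CPM (SD, n = 3) on HFD. The log2 fold change was 0.87 with a standard error (SE) of 0.384 and an adjusted p of 0.191 in edgeR's quasi-likelihood test. Without NCD replicate 1 it was 0.55 with an SE of 0.147 and an adjusted p of 0.0496, just inside the threshold. The summed level of 5 platelet and leukocyte markers ran from 61.9 to 106 CPM on NCD and from 188 to 288 CPM on HFD. Of the 4 markers tested, 1, *Ptprc*, was upregulated (edgeR adjusted p = 0.0360), against 5.58% of all genes tested. Without NCD replicate 1, 2 of the 4 were upregulated, against 10.7% of all genes. The platelet marker *Gp9* was at 0 in NCD replicate 1 and at most 0.130 CPM elsewhere. *Pf4* ran from 7.43 to 23.48 CPM on NCD and from 43.55 to 121.1 CPM on HFD (edgeR adjusted p = 0.0760). *Ppbp* ran from 0 to 0.447 CPM on NCD and from 0.815 to 17.82 CPM on HFD (edgeR adjusted p = 0.0861). *Itga2b* overlapped, at 1.247 to 4.415 CPM on NCD and 1.318 to 4.798 CPM on HFD. The part of these cells in the *Pecam1* difference was not tested.

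*Cdh5* (12562, chr8:104101625-104144511, plus strand) encodes VE-cadherin, the cadherin of endothelial adherens junctions, which is far more restricted to endothelium than CD31. It stood at 65.3, 210 and 251 CPM on NCD and at 319, 262 and 239 CPM on HFD. HFD replicate 3 lay below NCD replicate 3, so the diets overlapped. The log2 fold change was 0.64 with an SE of 0.485 (edgeR adjusted p = 0.410), and 0.26 without NCD replicate 1 (adjusted p = 0.346).

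*Kdr* (16542, chr5:75932827-75978458, minus strand) encodes the main signalling receptor for VEGF-A. It measured 46.7, 178 and 190 CPM on NCD and 157, 119 and 99.7 CPM on HFD. All HFD mice lay between NCD replicate 1 and the other NCD mice. The log2 fold change of -0.14 had an SE of 0.521 (edgeR adjusted p = 0.872), and without NCD replicate 1 it was -0.54, again short of the threshold (adjusted p = 0.114). The sign of the fold change with all 6 mice turned to 0.16 with total counts as the only scaling, under which the median log2 fold change over all genes was 0.45 in place of -0.08.

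*Flt1* (14254, chr5:147561604-147726011, minus strand), which encodes VEGF receptor 1 and its soluble decoy form, stayed in a narrow range outside NCD replicate 1. Its level was 29.4, 80.4 and 88.5 CPM on NCD and 94.1, 79.4 and 76.8 CPM on HFD. The log2 fold change was 0.34 with an SE of 0.405 (edgeR adjusted p = 0.605), and without NCD replicate 1 it was -0.00 with an SE of 0.134 (adjusted p = 0.986).

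*Tek* (21687, chr4:94739289-94874976, plus strand) encodes TIE2, the receptor of the angiopoietins. It measured 18.9, 47.5 and 46.0 CPM on NCD and 65.6, 56.3 and 59.8 CPM on HFD, without overlap. On the log2 scale the fold change was 0.69 with an SE of 0.354 (edgeR adjusted p = 0.245), and 0.39 without NCD replicate 1 (adjusted p = 0.0626), short of the threshold in each case.

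*Tie1* (21846, chr4:118471191-118490061, minus strand) encodes the partner receptor that has no angiopoietin bound directly and modulates TIE2. Its level was 26.6, 75.3 and 87.4 CPM on NCD and 99.3, 92.2 and 92.6 CPM on HFD, and the diets did not overlap. The means were 63.1 ± 32.2 CPM (SD, n = 3) and 94.7 ± 3.97 CPM (SD, n = 3). This was a log2 fold change of 0.59 with an SE of 0.421 (edgeR adjusted p = 0.388), and 0.23 without NCD replicate 1 (adjusted p = 0.220).

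Among the ligands, *Vegfa* (22339, chr17:46016993-46032369, minus strand) encodes the main growth factor of blood vessels. Its level was 160, 242 and 376 CPM on NCD and 171, 224 and 223 CPM on HFD. All 3 HFD mice lay inside the NCD range and below NCD replicates 2 and 3. The log2 fold change was -0.33 with an SE of 0.337 (edgeR adjusted p = 0.536), and -0.57 without NCD replicate 1 (adjusted p = 0.148). It turned to 0.06 with scaling by total counts and to 0.05 when NCD replicate 3, the highest mouse, was left out.

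*Vegfb* (22340, chr19:6982473-6987651, minus strand) encodes a ligand of VEGF receptor 1 that is associated with oxidative tissues and fatty acid uptake rather than vessel sprouting. It measured 34.7, 77.1 and 113 CPM on NCD and 52.2, 43.5 and 28.4 CPM on HFD. Each HFD mouse lay below NCD replicates 2 and 3. With all 6 mice the log2 fold change was -0.86 with an SE of 0.453 (edgeR adjusted p = 0.258). Without NCD replicate 1 *Vegfb* was downregulated, with a log2 fold change of -1.19 (adjusted p = 0.0391). The value with NCD replicate 3 left out instead was -0.42.

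The stretch before the transcription start is printed for *Vegfa* and *Vegfb*, the ligand genes whose windows lie outside the gene in both RefSeq and GENCODE. The sequences are the 250 bases upstream of a RefSeq start (GRCm38.p6, minus strand, 5′ to 3′), at chr17:46032378-46032627 for *Vegfa* and chr19:6987652-6987901 for *Vegfb*. Capitals mark Sp1 boxes (GGGCGG) and hypoxia response cores (ACGTG or GCGTG) on either strand.
Vegfa: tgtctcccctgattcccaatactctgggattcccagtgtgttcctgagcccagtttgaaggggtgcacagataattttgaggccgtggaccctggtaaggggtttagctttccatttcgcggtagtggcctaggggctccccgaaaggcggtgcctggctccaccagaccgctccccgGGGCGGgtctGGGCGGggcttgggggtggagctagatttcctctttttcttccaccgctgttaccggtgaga
Vegfb: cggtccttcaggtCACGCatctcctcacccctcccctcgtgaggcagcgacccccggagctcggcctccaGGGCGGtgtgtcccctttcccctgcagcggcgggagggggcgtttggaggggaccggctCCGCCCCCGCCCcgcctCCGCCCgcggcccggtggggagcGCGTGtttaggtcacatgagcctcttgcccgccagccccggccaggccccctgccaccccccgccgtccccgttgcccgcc

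*Vegfa* held 2 Sp1 boxes and 0 hypoxia cores in this window, and *Vegfb* 4 Sp1 boxes and 2 hypoxia cores. Of the 2 RefSeq starts listed for *Vegfa*, only the one at the 5′ end of the gene was used. Bases farther upstream were not searched in either gene. Sp1 boxes were present in 32.7% and hypoxia cores in 38.6% of the 32851 windows of the same length. The GC content was 59.2% for *Vegfa* and 76.4% for *Vegfb*, against a median of 52.4%. Among the receptor genes with a window, *Kdr* held 2 Sp1 boxes and 2 hypoxia cores and *Flt1* 3 and 1, while *Tek* and *Tie1* held 0 of each. The ETS core GGAA, on either strand, occurred 7 times in *Tie1*, 6 times in *Vegfa*, 4 times each in *Kdr* and *Flt1*, 2 times in *Tek* and 1 time in *Vegfb*. It was present in 93.4% of all windows with a median of 3 matches. The TATA box letters TATAAA were found in *Flt1* alone of the 6 and in 12.4% of all windows. These are matches of letters, not sites shown to be bound.

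*Angpt1* (11600, chr15:42424723-42676977, minus strand) encodes the activating ligand of TIE2, made by mural and stromal cells. Its level was 10.4, 32.6 and 55.1 CPM on NCD and 11.9, 16.5 and 15.02 CPM on HFD. The HFD mice sat close together, above NCD replicate 1 and below NCD replicates 2 and 3. With all 6 mice the log2 fold change was -1.18 with an SE of 0.561 (edgeR adjusted p = 0.218). Without NCD replicate 1 it was -1.59 with an SE of 0.262 (adjusted p = 0.0150), and with NCD replicate 3 left out instead it was -0.57. Counted over transcripts, 2 pairs of an exon of *Angpt1* and an exon of the antisense gene *Gm17473* share positions. The sources used here do not say whether reads were counted by strand.

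*Angpt2* (11601, chr8:18690263-18741562, minus strand), the antagonist released from endothelium, was the lowest of the 10 genes in raw level on NCD. It measured 5.60, 10.1 and 15 CPM on NCD and 19.7, 13.6 and 15.02 CPM on HFD, and the diets overlapped. Its log2 fold change was 0.65 with an SE of 0.379 (edgeR adjusted p = 0.298), and 0.37 without NCD replicate 1 (adjusted p = 0.333). The gene lies inside *Mcph1* on the other strand with 0 overlapping exons, and *Mcph1* stood at 14.95 to 17.18 CPM on NCD and at 11.03 to 15.5 CPM on HFD.

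**Figure D2:**
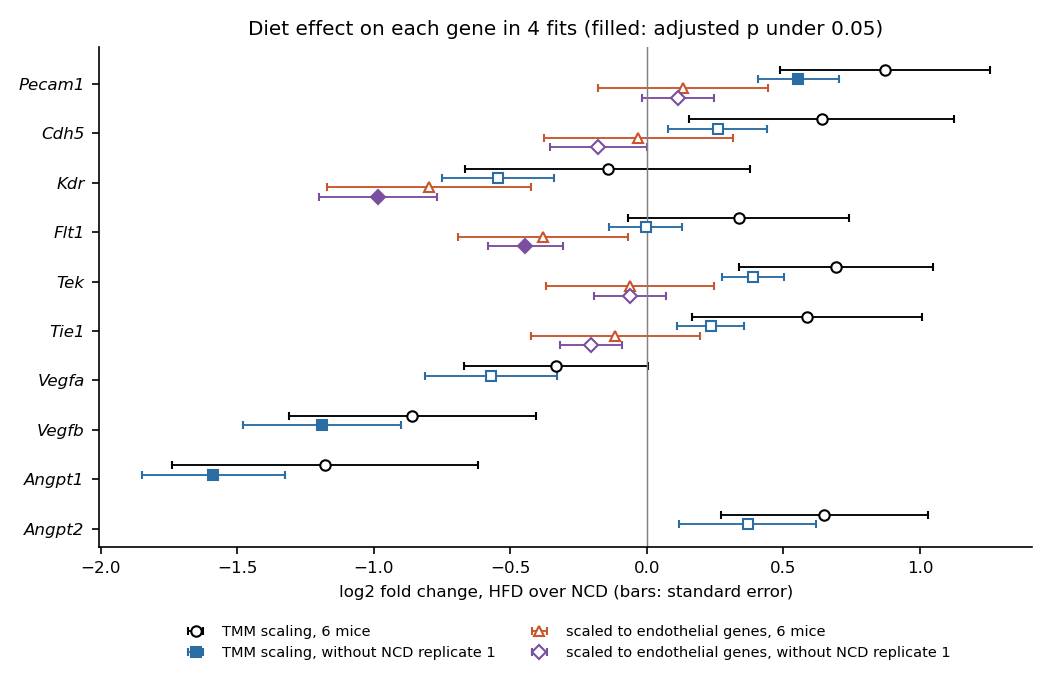
log2 fold change of each gene, HFD over NCD, with SE bars, in up to 4 fits; filled symbols passed an adjusted p under 0.05 and the vertical line is at 0. With TMM scaling *Pecam1*, *Vegfb* and *Angpt1* are filled without NCD replicate 1 and none is filled with all 6 mice, and *Kdr* and *Flt1* are filled when libraries without that mouse are scaled to endothelial genes.

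Ratios of genes within a library do not depend on how libraries are scaled, and 9 such ratios of raw counts were compared between the diets. In 3 of the 9 the diets did not overlap, namely *Angpt2* to *Angpt1*, *Kdr* to *Cdh5* and *Flt1* to *Cdh5*. The share of other gene pairs without overlap was not computed. Among single genes, after TMM scaling, 20.5% were higher and 18.7% lower on HFD without overlap. The smallest two-sided p of an exact permutation test in this design is 0.1, and each of the 3 reached it, which became 0.3 after Benjamini-Hochberg adjustment over the 9.

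The ratio of *Angpt2* to *Angpt1*, the antagonist against the activator of TIE2, was 0.536, 0.310 and 0.272 in NCD replicates 1 to 3 and 1.65, 0.824 and 1.00 in HFD replicates 1 to 3. Every HFD mouse had a higher ratio than any NCD mouse. The difference of the mean log2 ratios was 1.64, a ratio 3.11-fold as high on HFD (exact permutation p = 0.1), and 1.93 without NCD replicate 1. Leaving out each mouse in turn kept it between 1.35 and 1.93.

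The ratio of *Kdr* to *Cdh5* was 0.715, 0.847 and 0.758 on NCD and 0.493, 0.453 and 0.417 on HFD. All HFD ratios were below all NCD ratios, and here NCD replicate 1 lay close to the other NCD mice. The log2 difference was -0.77, so that the HFD ratio was 58.7% of the NCD ratio (exact permutation p = 0.1), and it was -0.82 without NCD replicate 1. *Flt1* to *Cdh5* went the same way by less, with ratios of 0.449, 0.383 and 0.352 on NCD and 0.295, 0.303 and 0.321 on HFD. The log2 difference was -0.36, or 77.9% of the NCD ratio (exact permutation p = 0.1), and -0.26 without NCD replicate 1. These ratios share *Cdh5* as the denominator and are not independent of each other.

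The other 6 ratios overlapped between the diets. *Flt1* to *Kdr*, the decoy against the signalling receptor, was 0.628, 0.452 and 0.465 on NCD and 0.599, 0.668 and 0.771 on HFD, a log2 difference of 0.41 (exact permutation p = 0.2, adjusted p = 0.45), with NCD replicate 1 inside the HFD range. *Vegfa* to *Vegfb* was 4.62, 3.14 and 3.32 on NCD and 3.28, 5.16 and 7.82 on HFD, a log2 difference of 0.49 (exact permutation p = 0.3, adjusted p = 0.54). For *Pecam1*, *Tek* and *Tie1* over *Cdh5* and for *Tek* over *Tie1* the log2 differences ran from -0.09 to 0.15 (exact permutation p from 0.5 to 0.9).

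**Figure D3:**
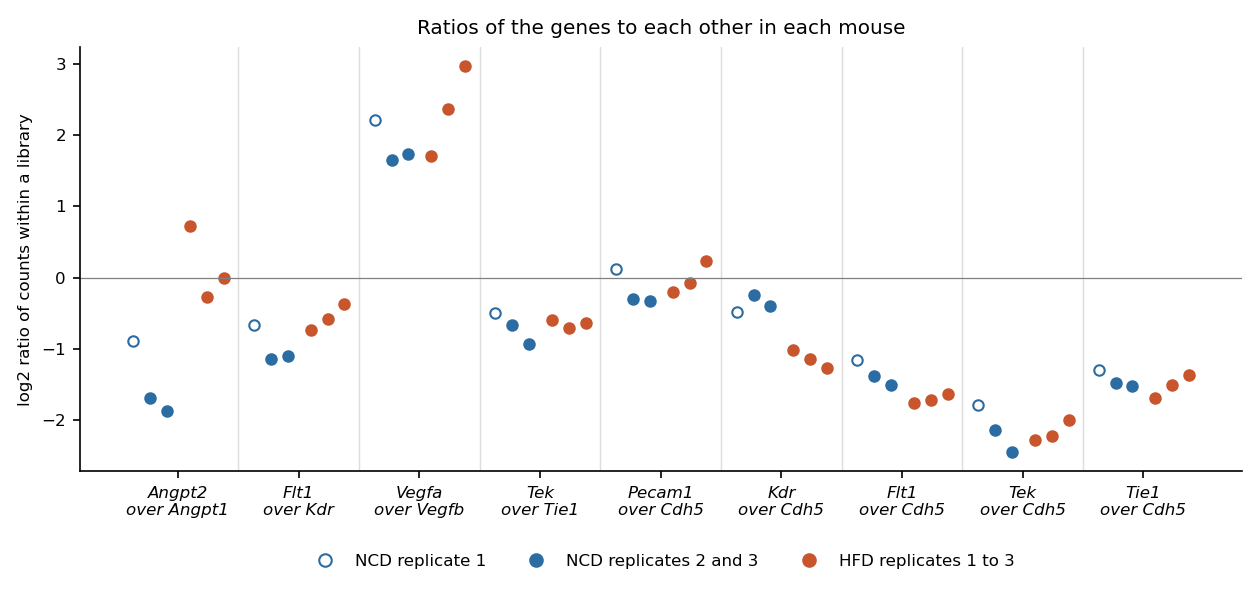
log2 ratio of counts within each library for 9 pairs of genes, with 1 point per mouse and a horizontal line at equal counts. The diets are apart for *Angpt2* over *Angpt1*, which is higher on HFD, and for *Kdr* and *Flt1* over *Cdh5*, which are lower on HFD.

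The receptors were also set against the rest of the endothelium by scaling each library to the median of 20 endothelial identity genes, none of them among the 10, a choice made after the data had been seen. This scaling moved the median log2 fold change of all genes to -1.07, and to -0.43 without NCD replicate 1. On that scale and with all 6 mice, *Pecam1*, *Cdh5*, *Tek* and *Tie1* had log2 fold changes of 0.13, -0.03, -0.06 and -0.12, all near the endothelial genes as a whole. *Kdr* had -0.80 (edgeR adjusted p = 0.128) and *Flt1* -0.38 (adjusted p = 0.330), and 1.31% of all genes were called. Without NCD replicate 1, *Kdr* was lower on HFD, at -0.98 with an SE of 0.217 (edgeR adjusted p = 0.0181), as was *Flt1* at -0.44 with an SE of 0.138 (adjusted p = 0.0474), while the other 4 receptor genes did not pass. On this scale 35.0% of all genes passed as lower on HFD, so a call is common among genes of any kind.

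Per kilobase of exon, *Vegfa* was the most abundant of the 10 on NCD with a mean of 73.6 TMM-scaled CPM per kb, followed by *Vegfb* at 58.5, *Cdh5* at 43.9, *Pecam1* at 35.6, *Kdr* at 23.3, *Tie1* at 13.9, *Tek* at 7.96, *Angpt1* at 7.68, *Flt1* at 6.03 and *Angpt2* at 2.88 CPM per kb. On HFD the order began with *Cdh5* at 68.4 and *Pecam1* at 65.2 CPM per kb, ahead of *Vegfa* at 58.4 and *Vegfb* at 32.3 CPM per kb. It went on with *Kdr* at 21.1, *Tie1* at 20.8, *Tek* at 12.9, *Flt1* at 7.61, *Angpt2* at 4.52 and *Angpt1* at 3.39 CPM per kb. Neighbours in these orders often did not separate. On NCD no pair of neighbours had ranges that were apart, and within a library *Cdh5* exceeded *Pecam1*, *Tek* exceeded *Angpt1* and *Angpt1* exceeded *Flt1* in only 2 of 3 mice each. On HFD the ranges were apart for *Vegfa* over *Vegfb*, *Tie1* over *Tek*, *Tek* over *Flt1* and *Flt1* over *Angpt2*. *Cdh5* exceeded *Pecam1*, *Pecam1* exceeded *Vegfa* and *Angpt2* exceeded *Angpt1* in 2 of 3 HFD mice each, and *Kdr* and *Tie1* differed by a mean log2 of -0.00 with an SD of 0.278.

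**Figure D4:**
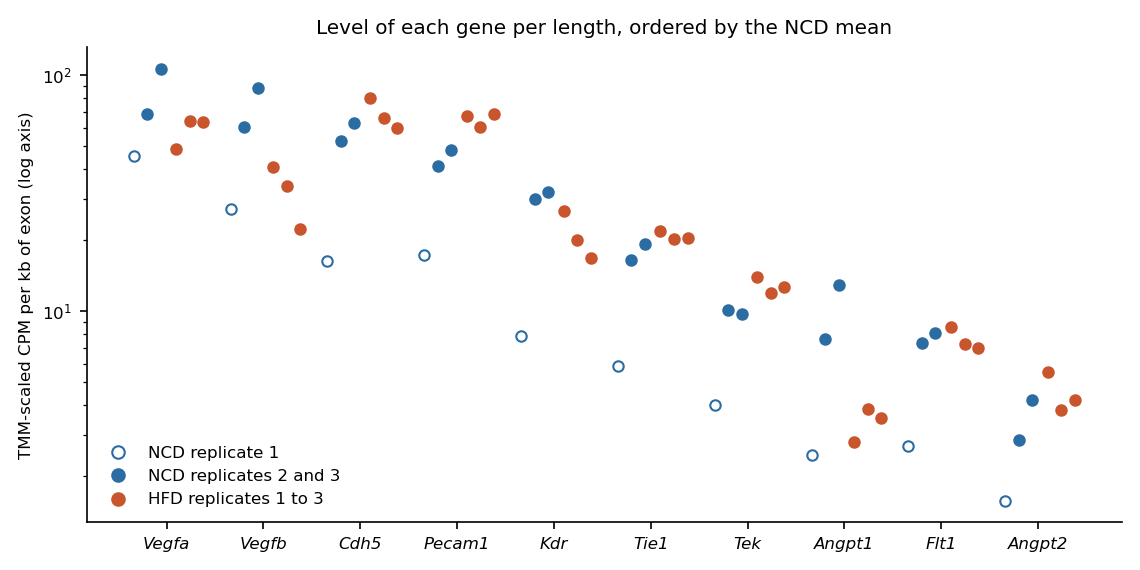
TMM-scaled CPM per kb of exon for each gene on a log axis, 1 point per mouse, with genes ordered by the NCD mean from *Vegfa* at 73.6 to *Angpt2* at 2.88. *Vegfa* and *Vegfb* head the NCD order, whereas *Cdh5* and *Pecam1* have higher means than *Vegfa* on HFD.

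The 10 genes whose levels followed the 6 receptor genes most closely over the 6 libraries, among 13589 genes with a mean of at least 1 CPM, were *Zdhhc7*, *Map7d3*, *Tmem209*, *B3galnt1*, *Sgcb*, *Adgrl4*, *She*, *Ctnnbip1*, *Ets1* and *Sox18*. They are named in order of r, highest first, and of the 10 only *Sox18* was in a gene list used here. *Adgrl4* is an endothelial adhesion receptor, *Sox18* an endothelial transcription factor and *Ets1* a transcription factor of the ETS family. Pearson's r with the mean log2 level of the receptors was 0.995 to 0.999 over 6 libraries and 0.851 to 0.996 over the 5 without NCD replicate 1. *Adgrl4*, for example, measured 25.7, 83.5 and 101 CPM on NCD and 114, 93.4 and 88.3 CPM on HFD. The points share their libraries, and the low value of NCD replicate 1 makes up much of the range.

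In the rest of the VEGF family, 1 of 6 genes was upregulated on HFD and none was downregulated, against 5.58% and 1.90% of all genes tested. *Nrp2*, a neuropilin co-receptor, stood at 41.1, 53.9 and 49.3 CPM on NCD and at 119, 78.4 and 88.7 CPM on HFD, with a log2 fold change of 0.99 (edgeR adjusted p = 0.0463). *Pgf*, which encodes placental growth factor, a ligand of VEGF receptor 1, was at 1.54 to 2.07 CPM on NCD and 3.63 to 5.46 CPM on HFD without overlap, with a log2 fold change of 1.20 (edgeR adjusted p = 0.0614). *Nrp1*, the co-receptor of *Kdr*, had a log2 fold change of 0.78 (edgeR adjusted p = 0.295). *Vegfc*, *Vegfd* and *Flt4*, the lymphatic arm of the family, had 0.59, 0.49 and -0.14 (adjusted p = 0.331, 0.474 and 0.649 in edgeR).

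Of 4 further genes of the angiopoietin-TIE pathway, 2 were upregulated and none was downregulated, against 5.58% and 1.90% of all genes tested. *Svep1*, a large matrix protein reported as a ligand of TIE1, rose from 34.4, 83.4 and 66.3 CPM to 295, 373 and 322 CPM, a log2 fold change of 2.43 with an SE of 0.356 (edgeR adjusted p = 0.0235). *Dok2*, an adaptor that binds TIE2 and is also abundant in leukocytes, rose from 8.31, 18.6 and 18.1 CPM to 83.4, 63.4 and 92.5 CPM, a log2 fold change of 2.41 (edgeR adjusted p = 0.0235). The summed level of 6 macrophage markers ran from 331 to 797 CPM on NCD and from 1789 to 3252 CPM on HFD, and its part in the *Dok2* difference was not tested. *Ptprb*, the endothelial phosphatase that restrains TIE2, had a log2 fold change of 0.54 (edgeR adjusted p = 0.331), and *Angpt4* stayed at 1.63 to 3.84 CPM in all mice.

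Of the 20 endothelial identity genes, none passed with all 6 mice, although 19 had a positive log2 fold change and 13 did not overlap between the diets, against 20.5% of all genes that were higher on HFD without overlap. Their median log2 fold change was 0.69, while that of all genes was -0.08. Without NCD replicate 1, 7 were upregulated and 1 was downregulated, against 10.7% and 10.1% of all genes, and the median of the 20 was 0.40. *Plvap*, the diaphragm protein of fenestrated endothelium, measured 22.0, 48.7 and 34.7 CPM on NCD and 63.7, 79.5 and 98.7 CPM on HFD (edgeR adjusted p = 0.0756, and 0.0440 without NCD replicate 1). *Sox17*, an arterial transcription factor, measured 7.79, 12.7 and 16.8 CPM on NCD and 27.2, 26.4 and 27.9 CPM on HFD (edgeR adjusted p = 0.0665, and 0.0181 without NCD replicate 1). The gene that went down was *Nos3*, the endothelial nitric oxide synthase, at 22.9, 92.6 and 88.5 CPM on NCD and 27.4, 31.5 and 30.6 CPM on HFD. Its log2 fold change was -1.19 with all mice (edgeR adjusted p = 0.178) and -1.59 without NCD replicate 1 (adjusted p = 0.00544), and it is named here after its values were seen.

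Lists of adipose capillary genes (8), Notch and tip cell genes (12) and mural cell genes (9) held 0 calls with all 6 mice, with median log2 fold changes of 0.62, 0.16 and 0.25. Over all genes tested, 7.47% were called with all 6 mice. When NCD replicate 1 was left out, 1 capillary gene and 1 Notch or tip cell gene were upregulated. In the same comparison 1 gene of each of the 3 lists was downregulated. Over all genes, 10.7% were called higher and 10.1% lower there. The summed mural cell level overlapped, at 225 to 703 CPM on NCD and 380 to 554 CPM on HFD. Markers of adipocytes, a main source of *Vegfa* in fat, summed to 4179 to 20340 CPM on NCD and 5152 to 7476 CPM on HFD. *Cfd* alone measured 1875, 6340 and 8820 CPM on NCD and 392, 1052 and 659 CPM on HFD. The other adipocyte markers all overlapped between the diets. Among them, *Adipoq* and *Pnpla2* had log2 fold changes of -0.16 and 0.38 (edgeR adjusted p = 0.8817 and 0.6495). *Pnpla2* alone of the 7 markers had a positive log2 fold change. Of the 7 markers, 0 were called with all 6 mice. Without NCD replicate 1, 4 were downregulated, against 10.1% of all genes. Their part in the *Vegfa* and *Vegfb* values was not tested.

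Of 14 hypoxia-inducible genes, 3 were upregulated and none was downregulated, against 5.58% and 1.90% of all genes tested. The median log2 fold change was 0.06 with 7 of 14 positive, and 0.36 with 9 of 14 positive without NCD replicate 1. In that comparison 3 were upregulated and 1 was downregulated, against 10.7% and 10.1% of all genes. *Car9*, a carbonic anhydrase that is a classic target of hypoxia-inducible factor, stood at 0.396 to 0.585 CPM on NCD and 1.70 to 3.10 CPM on HFD (log2 fold change 2.26, edgeR adjusted p = 0.0289). *Adm*, which encodes the vessel-active peptide adrenomedullin, was at 10.9 to 13.7 CPM on NCD and 19.4 to 22.4 CPM on HFD (edgeR adjusted p = 0.0484). *P4ha1*, a collagen prolyl hydroxylase, was at 35.7 to 55.4 CPM on NCD and 74.9 to 119 CPM on HFD (edgeR adjusted p = 0.0496). *Hk2*, a glycolytic target, had a log2 fold change of -1.28 with all mice (edgeR adjusted p = 0.116) and -1.63 without NCD replicate 1 (adjusted p = 0.00544). None of 6 hypoxia sensing genes, *Hif1a*, *Epas1* and *Vhl* among them, passed with all 6 mice. *Egln2*, an oxygen-sensing prolyl hydroxylase, was downregulated without NCD replicate 1, with a log2 fold change of -0.40 (edgeR adjusted p = 0.0384).

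Of 7 inhibitors of vessel growth, 3 were upregulated and none was downregulated, against 5.58% and 1.90% of all genes tested. *Thbs1* and *Thbs2* had the largest log2 fold changes of the 11 genes called in all the pathway lists with all 6 mice. *Thbs1*, thrombospondin 1, rose from 29.9, 22.6 and 36.6 CPM to 413, 514 and 824 CPM, a log2 fold change of 4.30 with an SE of 0.378 (edgeR adjusted p = 0.0192). *Thbs2* rose from 8.31, 11.04 and 14.4 CPM to 201, 115 and 104 CPM, a log2 fold change of 3.63 (edgeR adjusted p = 0.0194). *Serpinf1*, pigment epithelium-derived factor, rose from 37.7, 75.2 and 61.2 CPM to 343, 177 and 168 CPM (log2 fold change 1.98, edgeR adjusted p = 0.0413). These products have other roles in matrix and platelets, and the macrophage and leukocyte levels given above moved in the same direction, a part that was not tested. Across all pathway lists 11 genes were called, and over all genes tested 7.47% were. Leaving out any mouse other than NCD replicate 1 left 0 called in these lists, when only 2 to 7 genes of the whole table passed.

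**Figure D5:**
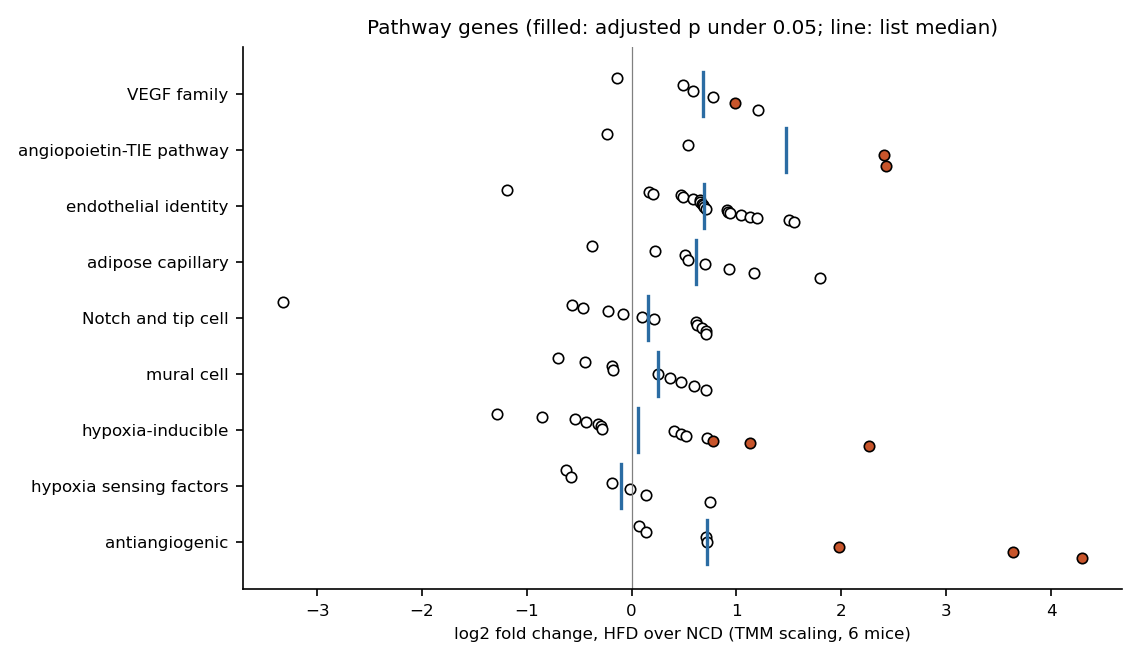
log2 fold change, HFD over NCD, of each gene in 9 lists around the vascular pathway, with all 6 mice; filled points passed an adjusted p under 0.05 and the bar is the median of the list. Filled points are all to the right of 0, with *Thbs1* at 4.30 and *Thbs2* at 3.63 the farthest, and the endothelial identity list has 19 of 20 points above 0 and none filled.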

How the data were processed

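Each group held 3 libraries that the labels give as separate samples, and the series' design text calls them biological replicates. The authors deposited raw read counts per gene, 1 column per mouse, with NCBI gene identifiers and no normalization. The submitters' processing notes name bcl2fastq 2.20.0, Trimmomatic, HISAT2 2.1.0, StringTie 1.3.4d and DESeq2 and the builds mm10 and GRCm38, without roles or settings. The labels name a stranded mRNA kit, and the sources used here do not say whether counting used strand. Counting error is small at these depths, so the spread between mice limits the precision.

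The members and the lists were chosen with earlier results of these data known. Symbols were found for 19742 of 19790 identifiers (NCBI, GRCm38.p6) and exon lengths for 17793 (GENCODE vM21 basic). The filter was filterByExpr (at least 10 counts, and 15 in total), the scaling TMM and the test that of edgeR 4.0.16 (glmQLFit, glmQLFTest, R 4.3.3), with Benjamini-Hochberg adjustment over all 15241 genes kept and a threshold of 0.05. The SE is the absolute log2 fold change over the square root of F. The common biological coefficient of variation was 0.424. Ratios had 0.5 added to each count and were compared by exact two-sided permutation. The procedure was tested on simulated data.

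All 10 members are named, together with the VEGF family and angiopoietin genes and up to 4 genes of each other list with the smallest unadjusted p. The genes named for likeness have the highest Pearson r with the mean log2 level of the 6 receptor genes. A gene outside these rules is said to have been chosen after its values were seen. *Hif1a*, *Epas1* and *Vhl* are named only as list members, and *Gp9* and *Prox1* as defining markers. *Pf4*, *Ppbp*, *Itga2b*, *Lyve1*, *Cfd*, *Adipoq* and *Pnpla2* were chosen after their values were seen, to give the spread within their lists.

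Alternatives were no filter, median-of-ratios scaling, total counts, TMM without the 11 secretory genes, DESeq2 1.42.0, voom with sample quality weights (limma 3.58.1), the replicate number as a block, no count added to ratios, levels without division by length, and each mouse left out. Scaling to endothelial genes, with and without NCD replicate 1, was chosen once the data were known. Plots were made in Python 3.11.15 (matplotlib 3.10.9). RefSeq promoter sequences covered 6 of the 10 members.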

Additional observations from a re-analysis of the deposited data

How the results depend on the processing

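Of 142 alternative values for the 10 genes (scaling to endothelial genes counted for the 6 receptor genes only), 119 kept their direction and their side of the threshold, 16 changed sign, and 8 passed the threshold where the value reported did not, 1 of them with a changed sign (*Flt1*, scaled to endothelial genes without NCD replicate 1). Of 72 for the ratios, 69 kept their direction. The 1139 genes called became 3904 with DESeq2, 5570 with voom quality weights (which gave NCD replicate 1 a weight of 0.134), 12 with the replicate number as a block, and 2 to 3234 with a mouse left out, the highest without NCD replicate 1. The 0 members called became 3 with voom weights (*Pecam1*, *Vegfb* and *Angpt1*) and 0 to 3 with a mouse left out. With libraries scaled to endothelial genes it was 0 with all mice and 5 without NCD replicate 1 (*Kdr*, *Flt1*, *Vegfa*, *Vegfb* and *Angpt1*, all lower, as were 35.0% of all genes). The 11 pathway genes called became 7 without the filter, 6 with total counts, 26 with DESeq2, 38 with voom weights, 0 with the replicate block and 0 to 28 with a mouse left out. The cause was not tested. Same-numbered mice did not deviate together (r from -0.06 to 0.01). The deposited column of HFD replicate 3 carries another number than its label, and the NCD mice differ in seminal vesicle RNA. The correlation therefore cannot decide whether the mice were paired.

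Signs changed as follows. Scaled to endothelial genes with all mice and without NCD replicate 1, the log2 fold change was -0.031 and -0.18 for *Cdh5*, -0.38 and -0.44 for *Flt1*, -0.0604 and -0.0606 for *Tek*, -0.12 and -0.21 for *Tie1*, and -0.12 and -0.06 for *Angpt2*, since this scaling lowers the median of all genes. *Kdr* was 0.16 with total counts, 0.0326 with the replicate block and from -0.54 to 0.17 with a mouse left out, where it was positive without NCD replicate 2 or 3 (0.08 and 0.17) or HFD replicate 3 (0.01). *Flt1* ran from -0.0039 to 0.62 and *Vegfa* from -0.57 to 0.0486 with a mouse left out, and *Vegfa* was 0.0625 with total counts. With a mouse left out the log2 ratio of *Tek* to *Tie1* ran from -0.0659 to 0.15 and that of *Tek* to *Cdh5* from -0.20 to 0.13. Without division by length only 2 of the 10 genes kept their NCD rank.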

Other observations

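Of 7 lymphatic endothelial genes, 1 was upregulated on HFD and none was downregulated, against 5.58% and 1.90% of all genes tested. *Pdpn*, which encodes podoplanin and is also made by stromal and mesothelial cells, measured 22.2, 19.6 and 19.6 CPM on NCD and 38.1, 117 and 100 CPM on HFD (log2 fold change 2.06, edgeR adjusted p = 0.0425). *Prox1*, the defining transcription factor of lymphatic endothelium, was at 1.43 CPM in NCD replicate 1 and at most 0.351 CPM in the other mice. *Reln*, *Mmrn1* and *Ccl21a* were highest in NCD replicate 1, at 20.5, 17.1 and 25.6 CPM, and at most 1.20 CPM in each HFD mouse. In NCD replicates 2 and 3 *Reln* was at 6.41 and 0.968 CPM, *Mmrn1* at 11.6 and 2.27 CPM and *Ccl21a* at 0.318 and 0.633 CPM. The part of the seminal vesicle RNA in these values was not tested. *Lyve1* overlapped, at 19.15 to 48.03 CPM on NCD and 16.5 to 72.27 CPM on HFD. *Flt4* did too, at 14.65 to 17.8 CPM and 12.27 to 17.18 CPM.

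Of 8 other angiogenic ligands, 1 was upregulated, against 5.58% of all genes tested. *Angptl4*, an inhibitor of lipoprotein lipase made by adipocytes, rose from 53.8, 156 and 211 CPM on NCD to 789, 757 and 907 CPM on HFD (log2 fold change 2.54, edgeR adjusted p = 0.0425). *Igf1* measured 107, 394 and 560 CPM on NCD and 168, 217 and 215 CPM on HFD, with a log2 fold change of -0.82 with all mice (edgeR adjusted p = 0.368) and -1.24 without NCD replicate 1 (adjusted p = 0.0172).

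Chosen after their values were seen, *Rgcc*, *Apln* and *Cspg4* were, like *Kdr* and *Nos3*, lower in each HFD mouse than in NCD replicates 2 and 3, as were 29.5% of all genes tested. *Rgcc*, a gene of adipose capillaries, measured 51.6, 221 and 300 CPM on NCD and 172, 148 and 122 CPM on HFD, and its log2 fold change without NCD replicate 1 was -0.81 (edgeR adjusted p = 0.0434). *Apln*, the tip cell peptide apelin, had -0.99 (adjusted p = 0.0219, edgeR) and *Cspg4*, the pericyte proteoglycan NG2, -0.97 (adjusted p = 0.0406, edgeR) in the same comparison. Other genes of the capillary and tip cell lists went up in it, *Car4*, a carbonic anhydrase, with 1.35 (adjusted p = 0.0423, edgeR) and *Cxcr4*, a chemokine receptor, with 0.80 (adjusted p = 0.0264, edgeR). In *Rgcc*, *Apln* and *Cspg4* NCD replicate 1 lay near or below the HFD mice, and none of these 5 genes passed the threshold with all 6 mice.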
